A study of Mus musculus with 4 samples.

Results

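Microglia that carried many transcripts of the chemokine genes Ccl3 and Ccl4 were set against microglia of the same libraries in which no transcript of either was found. Cells were taken from 4 droplet libraries of brain microglia from C57BL/6 mice, with transcripts counted as unique molecular identifiers (UMIs). A rich cell had at least 10 UMIs of Ccl3 and Ccl4 together, at least 1 UMI of the microglial marker Tmem119, at least 1000 UMIs and 500 genes in all, and at most 10% of its UMIs from mitochondrial genes. A zero cell met the same conditions with 0 UMIs of both chemokines. By this rule 1003 of the 8220 Tmem119-positive cells were rich and 4347 were zero, out of 8369 cells past the filter and 8486 barcodes in the files. The series' text states 8095 cells.

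The mice received whole-brain irradiation of 8 Gy at postnatal day 21 or were sham controls, and microglia were collected 6 h or 1 week later. Each of the 4 groups (irradiated at 6 h, sham at 6 h, irradiated at 1 week, sham at 1 week) was 1 library made from 4 pooled mice. There was therefore no replicate library of any treatment, and differences between mice within a pool cannot be seen. The sample labels name brain microglia and the series' text speaks of hippocampal microglia; how the cells were isolated is not given in the sources used here.

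Ccl3 and Ccl4, also called MIP-1 alpha and MIP-1 beta, are small secreted proteins that attract leukocytes through G protein-coupled chemokine receptors, among them Ccr1 for Ccl3. Microglia, the resident macrophages of the brain, are a main source of both in injured, infected or irradiated brain tissue. Transcription of the pair is rapidly induced through NF-kB and AP-1 factors.

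The RefSeq sequence of 250 bases before the annotated start (GRCm38.p6, the patch release of the mm10 build) is shown for Ccl3, which chose the cells, and for 3 genes that were higher in rich cells, because these stretches hold or lack matches to the motifs of both factor families. Capitals mark the matches on either strand to the 10-base NF-kB motif (kappaB) and to the AP-1 motif TGANTCA; each sequence is written 5′ to 3′ on the gene's own strand.
Ccl3, chr11:83649379-83649628, minus strand: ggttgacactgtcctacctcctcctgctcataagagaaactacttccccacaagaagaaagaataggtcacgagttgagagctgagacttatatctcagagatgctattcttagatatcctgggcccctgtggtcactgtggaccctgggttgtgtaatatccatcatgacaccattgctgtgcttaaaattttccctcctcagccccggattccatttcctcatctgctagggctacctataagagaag
Cxcl10, chr5:92348890-92349139, minus strand: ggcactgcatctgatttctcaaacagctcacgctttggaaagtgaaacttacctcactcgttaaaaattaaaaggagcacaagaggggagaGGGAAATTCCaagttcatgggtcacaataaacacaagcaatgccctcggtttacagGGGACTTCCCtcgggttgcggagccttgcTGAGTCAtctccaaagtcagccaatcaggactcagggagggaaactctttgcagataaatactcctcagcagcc
Csf1, chr3:107760470-107760719, minus strand: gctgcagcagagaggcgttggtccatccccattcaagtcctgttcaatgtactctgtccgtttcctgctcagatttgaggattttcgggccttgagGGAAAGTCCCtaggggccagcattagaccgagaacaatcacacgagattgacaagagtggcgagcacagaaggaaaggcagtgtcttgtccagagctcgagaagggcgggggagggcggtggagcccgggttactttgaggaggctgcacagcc
Nfkbia, chr12:55492648-55492897, minus strand: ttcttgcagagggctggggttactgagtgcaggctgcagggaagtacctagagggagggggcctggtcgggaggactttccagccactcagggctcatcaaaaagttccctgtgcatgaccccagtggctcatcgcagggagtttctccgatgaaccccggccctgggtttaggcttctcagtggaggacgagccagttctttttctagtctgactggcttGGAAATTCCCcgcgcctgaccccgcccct
The Cxcl10 window held kappaB matches beginning 159 and 103 bases before the start and an AP-1 match 74 bases before it, the Csf1 window held a kappaB match 154 bases before it, and the Nfkbia window held one 29 bases before it. The printed Ccl3 window held neither motif. Over all 32851 windows of the table, 3.9% held a kappaB match and 6.75% an AP-1 match. In the 9914 windows of genes tested below, 4.55% held a kappaB match and 4.03% an AP-1 match. The 15 genes furthest up in rich cells, named below, had 13 windows from 12 genes, with kappaB in those of Csf1 and Cxcl10 and AP-1 in those of Cxcl10, Mt2, Plaur and Rsad2. The 10 genes furthest down had 11 windows from 9 genes, with 0 matches to either motif. At such shares so few windows can hold 0 matches, and nothing is read from the counts. These are letter matches in a short window and not measured binding.

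The libraries held 7399019, 9760928, 7733309 and 5706955 UMIs (irradiated 6 h, sham 6 h, irradiated 1 week and sham 1 week, the order used for all lists of 4 values). Between pairs of libraries 41 cell barcodes were shared, and 0 of them were shared between rich cells. A doublet caller (Scrublet) marked 45 of the 8369 filtered cells, of which 1, 0, 1 and 4 were rich. Rich cells were deeper than zero cells, with median totals of 4099, 4311, 3813.5 and 4157 UMIs against 3281, 3452, 3299.5 and 3485.5. A threshold on raw counts favours deep cells. Depth was therefore also matched, which left a gap in the irradiated library at 6 h (medians without the pair of 4061 UMIs in rich and 3499 UMIs in matched zero cells), and made equal by thinning. Nearly all cells were microglia, and no cell type that should lack the genes described was large enough to give a background share from free RNA. The 8 microglial markers other than Tmem119 were all detected in rich cells, with a summed level of 34852 to 43843 CPM (counts scaled to the same total per sum) against 43386 to 51582 CPM in zero cells.

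Rich cells made up a larger share of the irradiated library than of the sham library at 6 h, and shares at 1 week lay close together. They were 24.9% of Tmem119-positive cells in the irradiated library at 6 h (473 of 1898, exact 95% Clopper-Pearson interval 23 to 26.9%) and 4.58% in the sham library at 6 h (120 of 2623, 3.81 to 5.45%). At 1 week they were 10.8% in the irradiated library (230 of 2138, 9.48 to 12.2%) and 11.5% in the sham library (180 of 1561, 9.99 to 13.2%). The intervals at 6 h do not overlap and those at 1 week do. They cover counting error only, and with 1 library a group no test of irradiation was possible. The sham library at 1 week stood above the sham library at 6 h. Cells were also thinned to 2000 UMIs before the rule was applied, with shallower cells left out. The 4 shares were then 15.7%, 2.06%, 4.56% and 5.10%, in the same order of size. With a threshold of 3 UMIs of the pair per 1000 UMIs they were 22.5%, 3.62%, 8.70% and 11.02%. When the Tmem119 condition was dropped they were 25.4%, 4.68%, 10.8% and 11.8%.

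These shares describe cells chosen for the 2 chemokines, so the chemokine levels themselves are given without a test. Rich cells held 90.03%, 69.1%, 68.1% and 77.4% of all Ccl3 and Ccl4 UMIs of the Tmem119-positive cells. A rich cell had a median of 28 UMIs of the pair in the irradiated library at 6 h and of 20, 15.5 and 17 in the others, and the highest cells had 542, 403, 154 and 355. The tail at 6 h after irradiation was the heaviest: 152 cells with 50 or more UMIs held 63.8% of the pair's UMIs there, against 22 cells and 38.9% in the sham library at 6 h. At 1 week 18 irradiated cells held 20.6% and 31 sham cells held 46.1%. Ccl4 gave 64.2%, 58.4%, 59.6% and 56.3% of the pair's UMIs in rich cells, while 10, 10, 29 and 16 rich cells had no Ccl3 and 12, 11, 14 and 14 had no Ccl4. Just inside the threshold lay 30, 11, 26 and 15 cells with 10 UMIs of the pair, with median totals of 3509, 4042, 3454 and 3577 UMIs. Just outside it lay 31, 24, 25 and 24 cells with 9, with median totals of 4080, 4398, 3972 and 3533 UMIs.

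**Figure D1:**
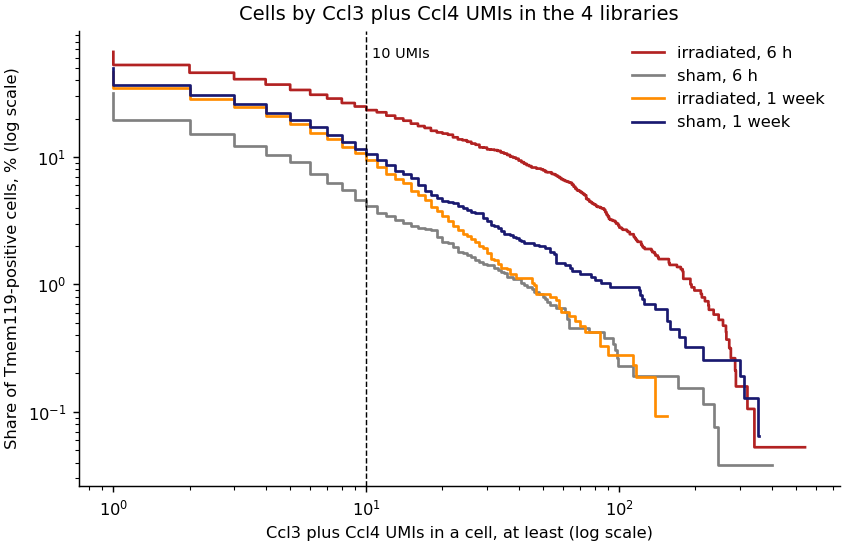
Share of Tmem119-positive cells (%, log scale) with at least a given number of Ccl3 plus Ccl4 UMIs (log scale) in the 4 libraries; the vertical line marks the 10 UMIs of the rule. The irradiated library at 6 h lies above the others, at 24.9% of cells at the line, and the sham library at 6 h is lowest there, at 4.58%.

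To ask which other genes differed, UMIs were summed over the rich cells and over the zero cells of each library, with Ccl3 and Ccl4 removed from the sums, and compared by edgeR's quasi-likelihood test with the library as a block. Of 10054 genes with at least 50 UMIs over the 8 sums, 725 (7.21%) were higher in rich cells and 436 (4.34%) were lower at an adjusted p under 0.05. In all 4 libraries, 640 of the 725 were higher and 428 of the 436 lower. Large differences were mostly upward, with 231 genes at least 2-fold higher and 28 at least 2-fold lower. The median log2 fold of all genes tested was -0.01. Scaled by totals alone, 614 genes were higher and 608 lower, so the balance of the small differences depends on the scaling. With zero cells matched to rich cells on total UMIs, incompletely in the irradiated library at 6 h, 743 of the 1161 genes were called with the same sign. With cells thinned to 2000 UMIs and shallower ones left out, 449 genes were higher and 210 lower. Rich and zero cells were still those chosen on raw counts. In the sham library at 1 week 114 of 776 zero cells and 9 of 180 rich cells were too shallow. Against microglia with 1 to 9 UMIs of the pair, in place of zero cells, 674 of the 1161 were called with the same sign. Without the irradiated library at 6 h the counts were 455 and 201, and the lower count was also 209 without the sham library at 6 h and 250 without the sham library at 1 week. The p-values measure the spread between 4 libraries that differ in treatment and time.

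The 15 genes furthest up included the cytokine and chemokine genes Tnf, Gdf15, Csf1, Cxcl10, Ccl2 and Ccl7 and the stress genes Atf3, Gadd45b and Mt2. Atf3, a stress-induced transcription factor of the ATF/CREB family on chromosome 1 (191170296 to 191218039), had 730, 610, 330 and 718 CPM in rich cells, against 53, 44.2, 39.2 and 89.4 CPM in zero cells. Every rich sum lay above every zero sum, and the log2 fold was 3.46 ± 0.12 (SE, adjusted p = 3.8e-13). An Atf3 UMI was found in 66.4%, 45.0%, 29.1% and 45.6% of rich cells and in 10.0%, 7.02%, 6.28% and 12.1% of zero cells, and at 2000 UMIs per cell in 55.2%, 37.0%, 22.8% and 33.3% against 6.82%, 4.78%, 4.37% and 8.76%. Tnf, the gene of tumour necrosis factor, had 127, 64.3, 148 and 121 CPM in rich cells, against 19.6, 8.34, 31.8 and 13.6 CPM in zero cells (log2 fold 2.71 ± 0.15, adjusted p = 3.2e-10). Here too the groups did not overlap. Gadd45b, a stress-inducible regulator of MAP kinase signalling, had 73.8, 56.9, 52.7 and 121 CPM against 4.30, 4.72, 5.38 and 1.51 CPM (4.12 ± 0.27). A Gadd45b UMI was nevertheless present in only 15.9%, 11.7%, 6.96% and 16.1% of rich cells, and in 1.11%, 1.00%, 1.48% and 0.515% of zero cells.

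Several of the furthest genes rested on few cells. Lgals3, the galectin-3 gene, had 100, 108, 11.4 and 46.8 CPM in rich cells, against 11.4, 0.629, 0 and 4.53 CPM in zero cells (log2 fold 4.45 ± 0.40, adjusted p = 1.9e-07). A Lgals3 UMI was found in 11.8%, 6.67%, 2.17% and 5.0% of rich cells, and 1 cell held 45.8% of the gene's UMIs in the rich sum of the sham library at 6 h. Cxcl10, an interferon-induced chemokine that attracts T cells, had 144, 248, 63.1 and 43.0 CPM in rich cells, against 2.39, 5.19, 4.87 and 12.1 CPM in zero cells (4.40 ± 0.35, adjusted p = 3.2e-08). Its rich sums came from 29, 5, 8 and 9 cells, and a single cell gave 29.8 to 63.7% of a sum. With the top cell of each gene left out of every sum, an alternative chosen after seeing the data, the log2 fold of Cxcl10 was 4.34 and that of Lgals3 4.66. The small zero sums lost their top cells as well. In the sham library at 1 week 1 zero cell held 27 of the 32 Cxcl10 UMIs. These folds therefore cannot tell how far single rich cells carried the difference.

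Gdf15, a secreted stress cytokine and p53 target, was abundant in 1 library. It had 1004, 22, 43.4 and 16.4 CPM in rich cells, against 51.5, 0.315, 6.92 and 1.51 CPM in zero cells (4.06 ± 0.23, adjusted p = 3.5e-10). In the irradiated library at 6 h a Gdf15 UMI was found in 51.8% of rich cells and 9.54% of zero cells; in the sham library at 6 h it was found in 2 cells of each kind, and 1 of them held 91.7% of the rich sum. Beside Ccl2 and Ccl7, described below, the remaining 7 of the 15 genes ranged in log2 fold from 2.54 to 3.33: Gas2l3 (a cytoskeletal linker), Rsad2 (the antiviral protein viperin), Plaur (the urokinase receptor), Mt2 (a metallothionein), Csf1 (a growth factor for microglia), Gpr162 (an orphan receptor) and Tnfrsf12a (the TWEAK receptor). In 11 of the 15 genes every rich sum exceeded every zero sum, as it did in 3.7% of all genes tested; the overlapping ones were Lgals3, Gdf15, Rsad2 and Gpr162. The genes were chosen for their fold and a common sign, so nothing is read from this count.

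**Figure D2:**
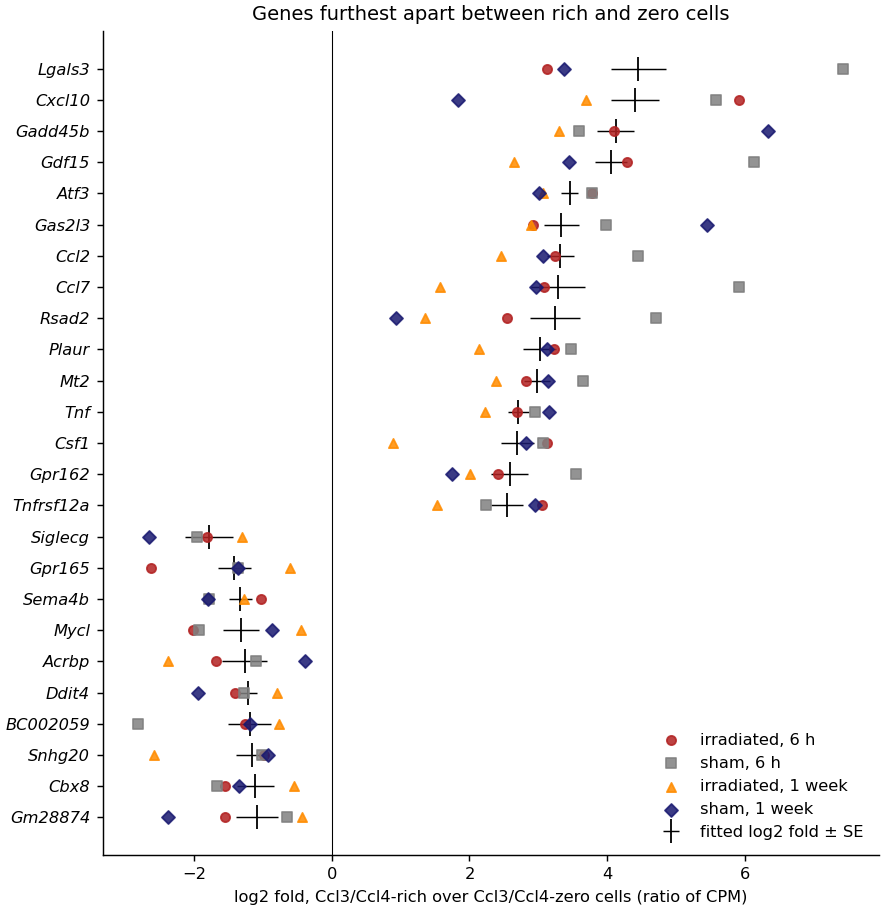
log2 ratio of CPM in rich over zero cells for the 15 genes furthest up and the 10 furthest down; coloured points are the 4 libraries, and black bars are the fitted log2 fold ± SE. All points lie on the side of the fitted value; Lgals3 has no point for the irradiated library at 1 week, where its zero sum held 0 UMIs.

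The 10 genes furthest down had smaller folds. Siglecg, an inhibitory receptor for sialic acid, had 2.44, 3.67, 5.17 and 2.53 CPM in rich cells, against 8.59, 14.3, 12.8 and 15.8 CPM in zero cells (log2 fold -1.78 ± 0.35, adjusted p = 0.0017). Its rich sums held only 5, 2, 5 and 2 UMIs. Against cells with 1 to 9 UMIs of the pair Siglecg was not called (-1.12, adjusted p = 0.0805 by the same edgeR test). Sema4b, a semaphorin, had 19.1, 16.5, 25.9 and 17.7 CPM against 38.7, 57.1, 62.2 and 61.5 CPM (-1.33 ± 0.17, adjusted p = 1.8e-05). In both genes the rich sums lay below all zero sums. Ddit4, an inhibitor of mTORC1 that responds to stress, had 157, 64.3, 73.4 and 12.7 CPM in rich cells, against 417, 155, 128 and 48.7 CPM in zero cells (-1.21 ± 0.12). Lower in every library, it differed in level between libraries, and its groups overlapped. The others were Gpr165 (an orphan receptor), Mycl (a Myc family factor), Acrbp, BC002059, Snhg20 (a snoRNA host transcript), Cbx8 (a Polycomb protein) and Gm28874, with log2 folds of -1.41 to -1.09. Of these, Acrbp, BC002059, Cbx8 and Gm28874 lost the call when 1 library was left out, with adjusted p up to 0.15, 0.0722, 0.0539 and 0.177. Rich sums lay below all zero sums in 7 of the 10, chosen in the same way, and in 5.71% of all genes.

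All genes of the chemokine list that could be tested were higher in rich cells. The counts of this list and of those below stand beside 7.21% of all genes called higher and 4.34% called lower. Of the 15 on the list besides Ccl3 and Ccl4, 9 passed the filter (8 chemokine genes and the receptor gene Ccrl2). All 9 were called higher, and their median log2 fold was 2.09, the value of Ccrl2, beside -0.01 for all genes; a gene expressed mainly in rich cells passes the filter through them. Ccl2, which attracts monocytes through Ccr2, had 641, 661, 678 and 272 CPM in rich cells, against 67.8, 30.2, 123 and 32.4 CPM in zero cells (3.31 ± 0.20, adjusted p = 4.6e-10). Its UMIs were found in 38.9%, 29.2%, 32.2% and 18.3% of rich cells and in 7.15%, 5.12%, 11.9% and 5.41% of zero cells, and the 2 groups of sums did not overlap. Ccl7, its neighbour on chromosome 11 with the same receptor, had 93.4, 105, 37.2 and 17.7 CPM against 11, 1.73, 12.6 and 2.26 CPM (3.29 ± 0.39), with 1 cell holding 71.4% of the rich sum of the sham library at 1 week. Ccl12, a further Ccr2 ligand, had 2188, 1484, 1419 and 503 CPM in rich cells, against 618, 248, 501 and 238 CPM in zero cells (1.81 ± 0.14). The rich sum of the sham library at 1 week lay among the zero sums.

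The call on Ccl5, a leukocyte-attracting chemokine of the same family, came from the 6 h libraries. It had 572, 395, 4.14 and 0 CPM in rich cells, against 66.3, 29.4, 4.35 and 0 CPM in zero cells (log2 fold 3.30 ± 0.22, adjusted p = 7.0e-09), and DESeq2 did not call it. Ccrl2, a decoy-like receptor that binds chemerin, was higher by 2.09 ± 0.13, and Cxcl16, a transmembrane chemokine, by 1.12 ± 0.11. Ccl9 (0.57 ± 0.09) and Ccl6 (0.54 ± 0.10) differed least. Ccr1, a receptor gene for Ccl3, was lower, with a log2 fold of -0.63 ± 0.16 (adjusted p = 0.014), and without the irradiated library at 6 h it was -0.32 (adjusted p = 0.176).

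Cytokine genes were split. Of 12 tested, 6 were higher, 1 was lower and 5 were not called, with a median log2 fold of 0.93. Over all genes 7.21% were higher and 4.34% lower. Besides Tnf, Gdf15 and Csf1, the higher ones were Il1b (4.44 ± 0.37), Il1a (0.95 ± 0.11), both interleukin-1 ligands, and Osm (2.13 ± 0.16), the oncostatin M gene. Il1b rested on 104 UMIs over all sums, with 16.6, 18.4, 18.6 and 35.4 CPM in rich cells, against 0.477, 0.472, 1.54 and 1.51 CPM in zero cells, and so passed the filter through its rich sums. Low as it was, it did not overlap between them, though 1 cell held 88.9% of the rich sum of the irradiated library at 1 week. Il16, a CD4 ligand, was lower (-0.64 ± 0.15, adjusted p = 0.0079).

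Of 26 NF-kB pathway and feedback genes tested, 11 were higher, 0 lower and 15 not called, with a median of 0.28. Nfkbia, the inhibitor IkB alpha that NF-kB itself induces, had 494, 768, 785 and 849 CPM in rich cells, against 272, 232, 275 and 238 CPM in zero cells (log2 fold 1.53 ± 0.11, adjusted p = 8.9e-09), without overlap. Nfkbiz (2.40 ± 0.14) and Nfkbid (1.54 ± 0.20), nuclear members of the same inhibitor family, were higher too. Cd83, an activation marker of myeloid cells, had 744, 612, 250 and 359 CPM in rich cells, against 146, 101, 64.0 and 84.1 CPM in zero cells (2.32 ± 0.10, adjusted p = 6.7e-12). A Cd83 UMI was found in 79.3%, 65.8%, 41.3% and 51.1% of rich cells and 26.6%, 23.8%, 16.0% and 21.8% of zero cells. Without the sham library at 1 week 6 members were called. The subunit genes Rel (0.27 ± 0.13, adjusted p = 0.21) and Nfkb1 (-0.25 ± 0.10, adjusted p = 0.14) were not called.

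Immediate early genes, which are transcribed within minutes of a stimulus, were nearly all higher. Of 18 tested, 16 were higher and 0 lower, with a median of 1.21. Fos, an AP-1 subunit, had 1157, 3374, 2244 and 2833 CPM in rich cells, against 519, 721, 1105 and 1123 CPM in zero cells (1.48 ± 0.13, adjusted p = 7.8e-08). Its lowest rich sum, in the irradiated library at 6 h, was still above every zero sum. Junb (1.26 ± 0.09) and Jun (0.45 ± 0.08), which also code for AP-1 subunits, overlapped between the groups. The largest log2 folds on the list besides Atf3 belonged to Maff (4.02 ± 0.35) and Nr4a1 (3.37 ± 0.34), both below 200 UMIs in all, followed by Ier3 (2.30 ± 0.11) and the zinc finger factor Egr2 (2.27 ± 0.20); Egr1 was at 1.70 ± 0.09.

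Genes that shut such responses down were higher as well. Of 18 dual-specificity phosphatase and messenger decay genes 10 were higher and 0 lower (median 0.85), among them Dusp1, a phosphatase that switches off MAP kinases (1.61 ± 0.15), and Zc3h12a, an RNase that degrades cytokine messengers (1.13 ± 0.19). In the list of KLF, ID and HES regulators 6 of 9 were higher and 2 lower (median 0.77), and Id2, an inhibitor of helix-loop-helix factors, had 1230, 321, 298 and 452 CPM in rich cells, against 136, 63.7, 119 and 88.3 CPM in zero cells (2.37 ± 0.18). The groups did not overlap, and the irradiated library at 6 h was far above the others. Klf4 (1.34 ± 0.14), Klf6 (1.28 ± 0.09) and Klf2 (1.20 ± 0.09) followed, and the lower ones were Klf3 (-0.58 ± 0.10) and Klf7 (-0.44 ± 0.12), of which 1 was called without the sham library at 6 h or the irradiated library at 1 week. Of 15 heat shock and stress genes 9 were higher and 0 lower (median 0.42), led by Hmox1, the heme oxygenase (1.37 ± 0.17). Of 15 Toll-like receptor and adaptor genes only Tlr2 (0.70 ± 0.13) and the adaptor Ticam1 (0.89 ± 0.26) were higher and 0 lower (median 0.08), beside 7.21% higher over all genes. With DESeq2 or thinned cells 1 was called, and Ticam1 lost the call without the irradiated library at 6 h (adjusted p = 0.359) or the sham library at 1 week (0.161).

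**Figure D3:**
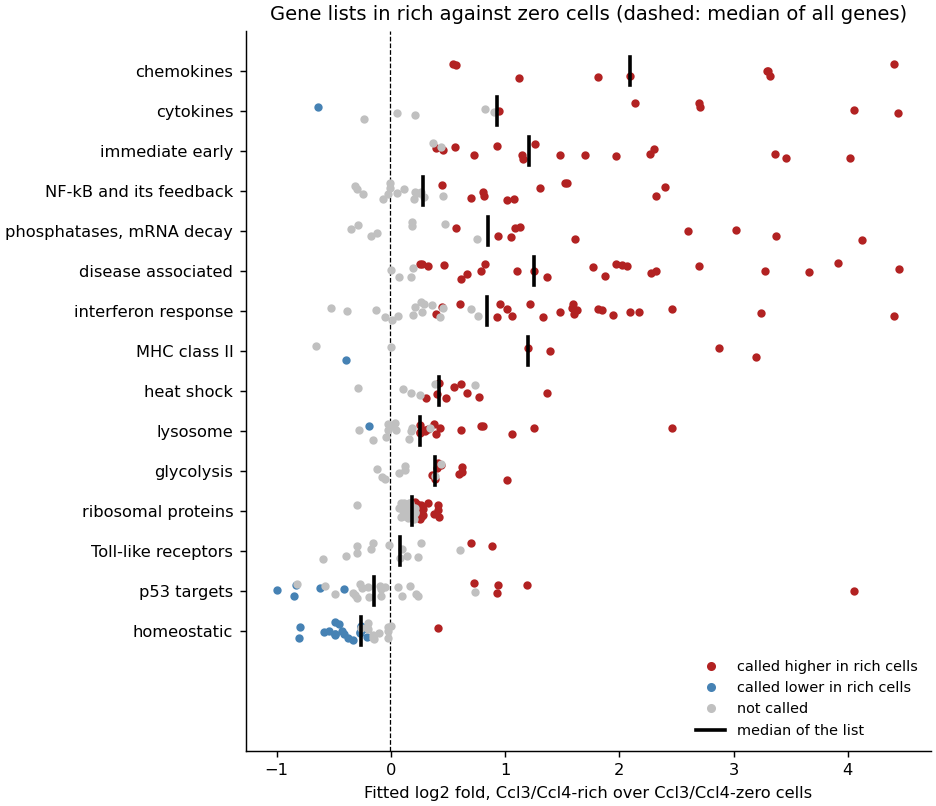
Fitted log2 fold in rich over zero cells for the members of each gene list that passed the filter; dots are genes, coloured where called higher or lower, black bars are the list medians, and the dashed line is the median of all genes. The chemokine list, which includes Ccrl2, has a median of 2.09, disease-associated genes 1.26, immediate early genes 1.21 and homeostatic microglial genes -0.26.

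Genes of the homeostatic list, most of which mark resting microglia, were moderately lower. Of 33 tested, 20 were lower, 1 was higher and 12 were not called, with a median of -0.26. P2ry12, a purinergic receptor by which microglia sense nucleotides, had 1750, 3447, 5247 and 3976 CPM in rich cells, against 3979, 7263, 7451 and 6187 CPM in zero cells (-0.80 ± 0.09, adjusted p = 1.5e-06). It was lower in every library, but the spread between libraries was wide and the groups overlapped. Slc2a5, a fructose transporter (-0.79 ± 0.10), Sall1, a transcription factor of microglial identity (-0.59 ± 0.12), and Selplg, a selectin ligand (-0.54 ± 0.07), were lower as well. The 1 higher member was Gpr84 (0.41, adjusted p = 0.026), a fatty acid receptor that lost the call without the sham library at 6 h (adjusted p = 0.146) or at 1 week (0.215). A lower CPM can also follow from other genes taking more of the total, which the test does not separate from fewer transcripts.

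Disease-associated microglial genes, a program first described around amyloid plaques in mice, were higher in 23 of 27 tested, with 0 lower and a median of 1.26. Lpl, lipoprotein lipase, had 108, 198, 113 and 205 CPM in rich cells, against 52.0, 36.0, 30.0 and 36.6 CPM in zero cells (2.02 ± 0.17, adjusted p = 5.9e-08). Apoe, the main lipid carrier of the brain, had 2760, 6338, 2176 and 2112 CPM against 1580, 2341, 1179 and 971 CPM (1.11 ± 0.08, adjusted p = 1.2e-08). Lpl did not overlap, while Apoe did, because its zero sum of the sham library at 6 h exceeded 2 of the rich sums. Lgals1, the galectin-1 gene, was at 2.32 ± 0.38, but in the sham library at 1 week it had 11.4 CPM in rich and 13.6 CPM in zero cells. Tyrobp, the signalling adaptor of the receptor Trem2, was not called (0.07 ± 0.06, adjusted p = 0.54). Against microglia with 1 to 9 UMIs of the pair the median of this list was 0.69.

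Interferon response genes were higher in 22 of 38 tested, with 0 lower and a median of 0.85. Ifit3, an antiviral RNA-binding protein, had 174, 266, 65.1 and 35.4 CPM in rich cells, against 60.1, 43.1, 23.3 and 11.7 CPM in zero cells (1.95 ± 0.16, adjusted p = 6.7e-08). It was higher in each library yet overlapped between the groups, and 1 cell held 55.6% of the rich sum of the irradiated library at 1 week. Ifit1 was at 2.09 ± 0.28 and Rsad2 at 3.24 ± 0.37, where 1 cell held 85.7% of a rich sum of 7 UMIs. With the top cell of each gene left out, 20 of 37 tested members were higher and 0 lower, with a median of 0.69.

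Among MHC class II genes, H2-Aa, H2-Eb1 and H2-Ab1 had most of their rich UMIs in single cells of 1 library. Of 7 genes tested 4 were higher (H2-Aa, H2-Eb1, H2-Ab1 and Cd74) and 1 lower (H2-DMb1), with a median of 1.20. Without the irradiated library at 6 h 1 of 5 tested was higher and 0 were lower. H2-Aa, a class II alpha chain, had 125, 0, 0 and 2 UMIs in the rich sums, against 10, 4, 1 and 1 UMIs in the zero sums, and 1 cell of the irradiated library at 6 h held 93.6% of its rich sum there. A single cell likewise held 100% of the H2-Eb1 UMIs and 75.3% of the H2-Ab1 UMIs of that sum, and 36.4% of those of Cd74. Of the 5 members still testable with the top cells left out, 1 was higher and 1 lower and the median was 0.05. Cd74, the invariant chain, remained higher at an adjusted p of 0.00043 (1.20 ± 0.13 before), and H2-DMb1 remained lower (-0.39 ± 0.10 before), while H2-Ab1 had a log2 fold of 0.56 (adjusted p = 0.209). Of 14 MHC class I genes 4 were higher (H2-Q7, H2-Q4, H2-D1 and H2-K1) and 0 lower, beside 7.21% higher over all genes. Their median was 0.20, and these are near-identical paralogs whose reads can be split wrongly.

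Of the S phase genes, 3 of 18 were higher (Fen1, Pcna and Mcm3) and 0 lower, with a median of 0.46, beside 7.21% higher over all genes. With DESeq2, with thinned cells or against cells with 1 to 9 UMIs of the pair, 1 was called. Genes that p53 activates after DNA damage showed no common direction. Of 30 tested, 5 were higher and 5 lower, with a median of -0.14, beside 7.21% higher and 4.34% lower over all genes. The higher ones were Gdf15, Pmaip1, a cell death gene (1.19 ± 0.21), Plk2 (0.94 ± 0.24), Btg2 (0.93 ± 0.10) and Cdkn1a, the p21 cell cycle inhibitor (0.72 ± 0.19, adjusted p = 0.018). Cdkn1a had 3111, 154, 2952 and 96.1 CPM in rich cells, against 3189, 32.2, 2068 and 41.9 CPM in zero cells. The irradiated libraries were high and the sham libraries low in both kinds of cell, and in the irradiated library at 6 h rich cells had slightly less than zero cells. The lower ones were Cd80 (-1.0 ± 0.26), Trp53cor1 (-0.85 ± 0.23), Sesn1 (-0.83 ± 0.20), Trp53inp1 (-0.62 ± 0.19) and Ak1 (-0.41 ± 0.11). Of these 10, only Gdf15, Pmaip1 and Btg2 were called in each of the 4 fits that left out 1 library; 1 lower call was left without the irradiated library at 6 h, 2 without the sham library at 1 week and 3 without the sham library at 6 h.

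RNA of other myeloid cells was followed with marker lists. Of 9 border macrophage markers 2 to 6 were at 0 in the rich sums, and Lyve1 was at 0 in all 8 sums. Their summed level was 25.4, 53.3, 35.2 and 8.85 CPM in rich cells, against 5.73, 21.9, 20.7 and 14.7 CPM in zero cells. It was thus higher in rich cells except in the sham library at 1 week. The 9 monocyte markers summed to 60.1, 42.2, 20.7 and 17.7 CPM in rich cells, against 34.8, 26.9, 17.2 and 15.5 CPM in zero cells. They were higher in rich cells of each library, and the defining gene Ly6c2 was at 0 in all sums. Plac8, a monocyte marker, was called higher (0.90 ± 0.28, adjusted p = 0.047), and lost the call without the irradiated library at 6 h (0.399), the sham library at 6 h (0.124) or the irradiated library at 1 week (0.0714). At least 2 UMIs of these markers were found in 5.07%, 8.33%, 4.78% and 0.556% of rich cells and in 1.59%, 2.78%, 1.83% and 1.03% of zero cells. The last pair is 1 of 180 and 8 of 776 cells, and a threshold on raw UMIs favours the deeper rich cells. Without those cells, an alternative chosen after seeing the data, 704 genes were higher and 384 lower, all 9 genes of the chemokine list were called higher, and of 5 testable class II genes 1 was higher. Without them 16 of 18 immediate early, 23 of 27 disease-associated, 11 of 26 NF-kB and 20 of 37 interferon genes were higher, and 18 of 33 homeostatic genes were lower. All 8 neutrophil markers were at 0, and markers of the other cell types were no higher than 1.84 CPM for T and NK cells, 177 CPM for astrocytes, 133 CPM for oligodendrocytes and 77.1 CPM for B cells in rich cells, against 0.512, 329, 121 and 92.2 CPM in zero cells. Neuron markers, at 1 to 15 UMIs a sum, had 7.33, 1.84, 10.3 and 3.79 CPM in rich cells, against 4.30, 1.42, 2.82 and 0.377 CPM in zero cells, higher in each library; their part in the results was not tested. Endothelial markers reached 44.3 CPM in rich and 44.5 CPM in zero cells, and markers of oligodendrocyte precursors 4.40 and 2.86 CPM.

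**Figure D4:**
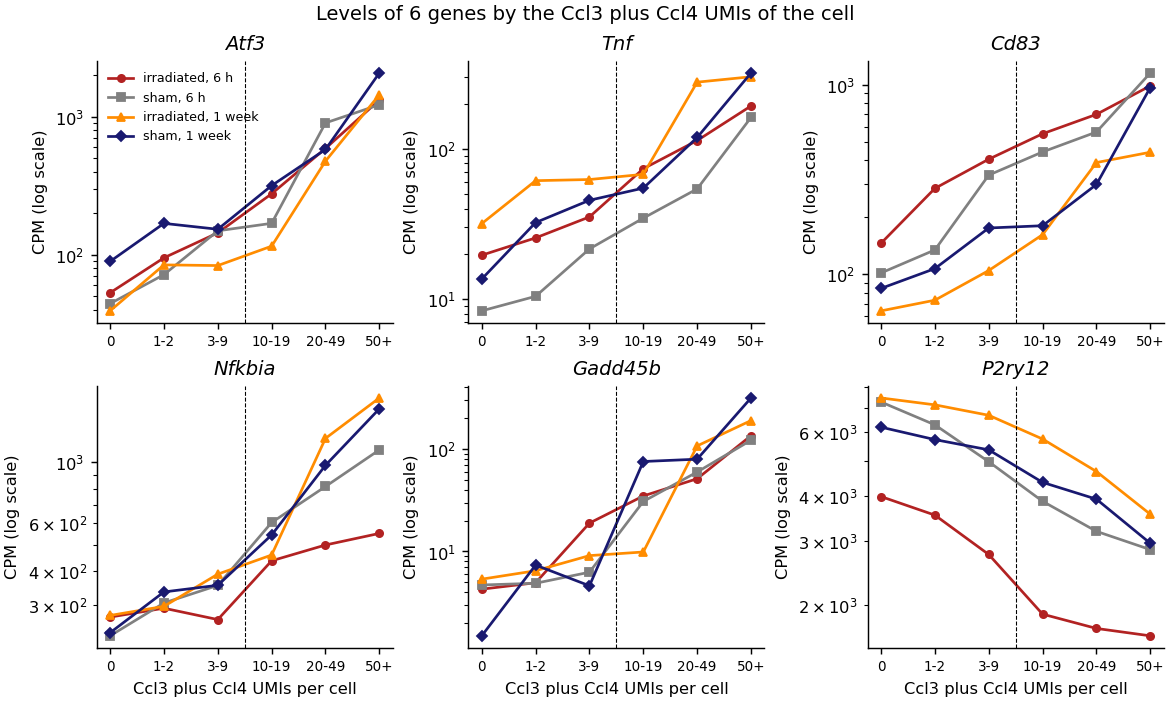
CPM (log scale) of Atf3, Tnf, Cd83, Nfkbia, Gadd45b and P2ry12 in cells grouped by their Ccl3 plus Ccl4 UMIs (0, 1-2, 3-9, 10-19, 20-49 and 50 or more), with 1 line per library; the dashed line is the rule's threshold. Tnf and Cd83 rise at every step in all 4 libraries and P2ry12 falls at every step, below the threshold as well as above it.

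For some of these genes levels already differed between cells below 10 UMIs of the pair. The bins are cut from the chemokine counts and are given as a description, with no test. Tnf had 19.6, 25.5, 35.2, 73.7, 113 and 193 CPM in cells of the irradiated library at 6 h with 0, 1-2, 3-9, 10-19, 20-49 and 50 or more UMIs of the pair. P2ry12 had 3979, 3536, 2753, 1883, 1719 and 1640 CPM in the same cells. Deeper cells reach higher bins more easily, and the median total there ran from 3281 to 4585 UMIs. The levels of Tnf, Cd83, Egr1, Junb, Klf6, Zfp36 and Cd9 increased at all 5 steps in each library, and those of P2ry12, Selplg and Cst3 decreased at all 5, out of 271 genes followed. Atf3 increased at all steps in the 6 h libraries and at 4 of the 5 steps in the 1 week libraries.

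Whether the rich state differed after irradiation was tested as an interaction over the 4 libraries. Of 10054 genes 0 (0.0%) were called by edgeR and 0 by DESeq2, with 323 and 30 genes at an unadjusted p under 0.05. The lowest p belonged to Cdkn1a, whose log2 fold of rich over zero cells was 1.52 ± 0.25 smaller in irradiated than in sham libraries (interaction -1.52, adjusted p = 0.135). Glipr1 (-1.30, adjusted p = 0.27), Ccl7 (-2.80), the cell death gene Bbc3 (-1.54) and Gpr84 (-0.73) came next, the last 3 at an adjusted p of 1. In the positive direction Cela1, Gm13889 (1.20), Gm29666, Blm and Myc (1.12) had the lowest p, all at an adjusted p of 1, and Cela1 had 0 UMIs in both sham rich sums. With rich cells defined from 20 UMIs, 1 gene was called higher (Gm13889) and 7 lower (Cdkn1a, Ccl7, Lpl, Ccl2, Glipr1, Cd74 and Bbc3). The interaction rests on 2 libraries of each treatment taken at different times.

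Among rich cells, most measurable p53 targets had higher levels in irradiated than in sham libraries. With 1 library on each side there is no test; a log2 ratio of CPM is given with its exact 95% interval, which covers counting error only, and genes needed 50 UMIs over both sums. At 6 h, 279 of 5749 genes (4.85%) were at least 2-fold higher and 138 (2.4%) at least 2-fold lower in irradiated rich cells. Of 20 measurable p53 targets, 16 were at least 2-fold higher and 1 lower, with a median log2 ratio of 2.75. The median was -0.02 for all genes and 2.96 for the same targets in zero cells. A gene near 0 in sham rich cells passes the filter through its irradiated sum, as Phlda3 did with 647 and 2 UMIs. The irradiated sum was also the larger, at 2045678 against 544479 UMIs, so the filter favours higher ratios. The count and the median carry this limit. In zero cells 2.63% of 8737 genes were at least 2-fold higher and 1.51% at least 2-fold lower. Phlda3, a repressor of Akt, had 316 CPM in irradiated and 3.67 CPM in sham rich cells (6.43, interval 4.57 to 9.48). Gdf15 had 1004 and 22 CPM (5.51, 4.70 to 6.46). Cdkn1a had 3111 and 154 CPM (4.33, 4.02 to 4.66), and its ratio in zero cells was 6.63 (6.43 to 6.84). With 1 to 3 UMIs in sham rich cells, ratios were wide: Plk2, a kinase gene, stood at 4.35 (2.47 to 7.41), Gm26870 at 4.68 (2.16 to 9.99), Cep170b at 3.82 (1.28 to 9.15), the co-stimulatory ligand gene Cd80 at 3.70 (1.16 to 9.04) and the inhibitory receptor gene Cd300lf at 3.65 (2.07 to 5.94). Of 6 class II genes 4 were at least 2-fold higher, H2-Aa among them, with 1 cell holding most of its UMIs as described above.

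Chemokine and immediate early genes did not follow that pattern at 6 h. Of 9 measurable genes of the chemokine list, 1 was at least 2-fold higher and 1 at least 2-fold lower in irradiated rich cells. Over all genes these shares were 4.85% and 2.4%. Ccl2 had 641 CPM in irradiated and 661 CPM in sham rich cells (log2 ratio -0.05, -0.21 to 0.13), while in zero cells it had 67.8 and 30.2 CPM (1.17, 0.84 to 1.49). Ccl7 was at -0.17 (-0.60 to 0.29) in rich and 2.67 (1.57 to 3.85) in zero cells. The median over the 9 genes of the chemokine list, Ccrl2 included, was -0.05 in rich cells and 1.17 in zero cells; the difference between the 2 ratios was tested only by the interaction over both times, which called 0 genes at the threshold of 10 UMIs and, from 20 UMIs, called both Ccl2 and Ccl7 lower. Among 15 immediate early genes 0 were 2-fold higher and 5 were 2-fold lower in irradiated rich cells, with a median of -0.64, against -0.28 in zero cells. Fos had 1157 and 3374 CPM (-1.54, -1.63 to -1.46) and Fosb 22.5 and 143 CPM (-2.67, -3.23 to -2.13), the lowest ratio of all genes. Id2, by contrast, had 1230 and 321 CPM (1.94, 1.72 to 2.17). The other genes furthest down were the interferon factor Irf1 (-2.11), Sesn1 (-1.75), Ccl6 (-1.69), the talin gene Tln2, Lrrk1, Tspan33 and Mmgt2 (-1.68 to -1.64).

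At 1 week 57 of 4528 genes (1.26%) were at least 2-fold higher and 25 (0.552%) at least 2-fold lower in irradiated rich cells. Of 16 p53 targets measurable by the same filter, with the same limit, 11 were at least 2-fold higher. Their median was 1.44, beside 0.08 for all genes and 1.70 in zero cells. In zero cells 0.96% of 8127 genes were at least 2-fold higher and 0.468% at least 2-fold lower. Cdkn1a had 2952 CPM in irradiated and 96.1 CPM in sham rich cells (4.94, 4.61 to 5.29). Ccl2 had 678 and 272 CPM (1.32, 1.09 to 1.55) and Ccl12 had 1419 and 503 CPM (1.5, 1.33 to 1.66), whereas Atf3 had 330 and 718 CPM (-1.12, -1.32 to -0.92). The sham rich cells at 6 h had 661 CPM of Ccl2, and against that library the sign of the Ccl12 ratio turned. Of 8 measurable genes of the chemokine list, 3 were at least 2-fold higher and 1 at least 2-fold lower. Their median was 0.27 in rich and -0.16 in zero cells. Besides Cdkn1a the genes furthest up were D630023F18Rik (5.49, 2.95 to 10.8, with 1 sham UMI), Top2a, the topoisomerase of dividing cells (4.86, 2.95 to 7.93, with 2 sham UMIs), Gm26870 (2.59), Ddit4 (2.54), the sestrin gene Sesn2 (2.43), the ephrin receptor gene Epha2 (2.39) and the histone gene H2afx (2.32). The genes furthest down were the small heat shock gene Hspb1 (-2.92), Cd74 (-1.80), the inflammatory caspase gene Casp4 (-1.65), Klf4 (-1.63), Csf1 (-1.52), Slamf8, H2-Oa and Rps12-ps3 (-1.29 to -1.25). Csf1 had 17.6 and 50.6 CPM in rich cells and 9.48 and 7.17 CPM in zero cells.

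At 1 week G2/M transcripts of the irradiated rich cells came mostly from a few cells. Of 6 measurable G2/M genes 5 were at least 2-fold higher in irradiated rich cells (median 1.82, against 0.38 in zero cells). Top2a, with 71 and 2 UMIs, passed the filter through the irradiated sum. Cells with at least 10 UMIs of the G2/M list numbered 7 of 230 (3.04%, 1.23 to 6.17%) in irradiated rich cells and 1 of 180 (0.556%, 0.0141 to 3.06%) in sham rich cells, and 8 of 1146 and 1 of 776 in zero cells. The 10 cells with most such UMIs held 80.4% of the G2/M UMIs of the irradiated rich cells and 28.5% of those of the sham rich cells, and 40.7% and 24.4% in irradiated and sham zero cells. At 6 h they held 21.9% in irradiated and 60.4% in sham rich cells, of which there were only 120. In the comparison of rich with zero cells, 3 of 15 G2/M genes were higher (Top2a, Hmgb2 and Cenpf) and 0 lower, beside 7.21% higher over all genes. All 3 lost the call without the irradiated library at 1 week, with adjusted p of 0.0856, 0.114 and 0.768. Calls numbered 1 of 13 without the sham library at 6 h, 11 of 14 without the irradiated library at 6 h and 7 of 14 without the sham library at 1 week.

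**Figure D5:**
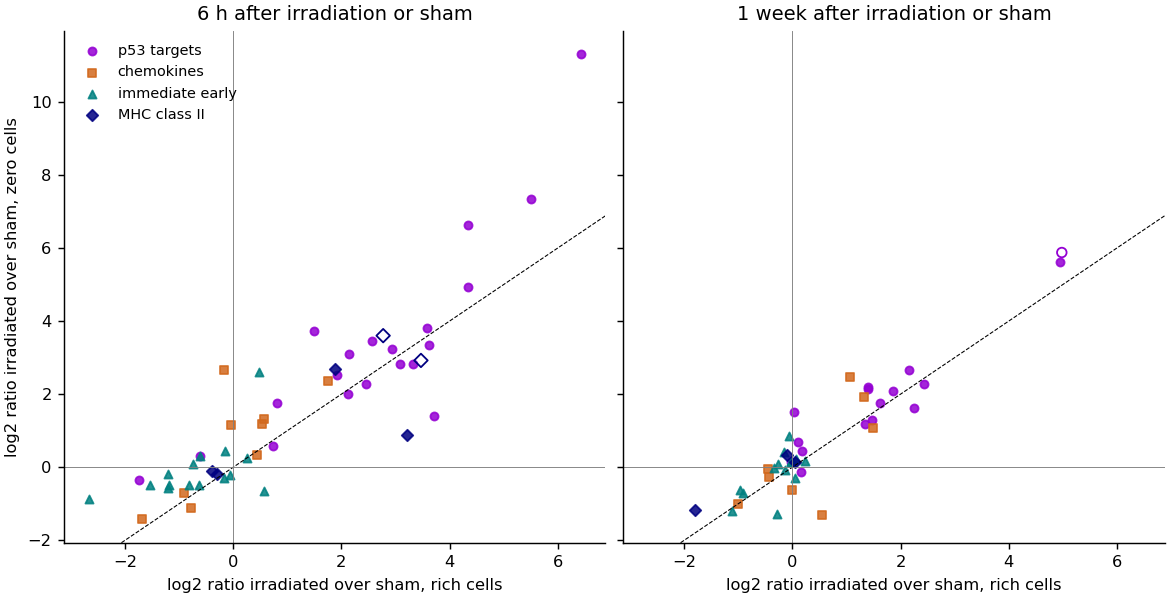
log2 ratio of CPM in irradiated over sham libraries in rich cells (x axis) and in zero cells (y axis), at 6 h and at 1 week, for members of 4 gene lists; the dashed line marks equal ratios. Open symbols had 0 UMIs in the sham rich sum and are placed at a floor of 3 counts. At 6 h p53 targets reach 6.43 in rich cells, and Ccl2 and Ccl7 lie near 0 in rich cells (-0.05 and -0.17) and above 1 in zero cells (1.17 and 2.67).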

How the data were processed

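The deposited files hold raw UMI counts per gene and barcode for 4 libraries, made with Cell Ranger 2.0 on mm10, per the submitters' processing notes; the gene annotation release is not given in the sources used here. Cells were filtered as stated in the report, and UMI counts of rich and of zero cells were summed per library, with Ccl3 and Ccl4 removed. The members and gene lists were chosen with earlier results of these data known. Sums were tested with edgeR 4.0.16 (R 4.3.3; quasi-likelihood test, TMM scaling, Benjamini-Hochberg adjustment) for genes with at least 50 UMIs over the 8 sums. The library was a block, because both sums of a library come from the same pooled mice. Irradiated and sham libraries were compared without a test, by the ratio of CPM (counts scaled to the same total) with exact conditional binomial intervals at 95%. A sum of 0 was put at a floor of 3 counts, while other sums under 3 counts were left as they were. A gene with a sum of 0 can therefore rank below one with a few UMIs there, and the rankings by ratio carry this limit. All intervals cover counting error only. Libraries held 5706955 to 9760928 UMIs.

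Named genes were the 15 highest and 10 lowest log2 folds among called genes with at least 200 UMIs and the same sign in all libraries, up to 5 in each direction by p for the interaction, the 8 highest and 8 lowest ratios at each time, and up to 4 members of each list; a few more were chosen after their values were seen. Alternatives were DESeq2 1.42.0, other scalings, filters and thresholds, matched or thinned depth, doublets left out (Scrublet in scanpy 1.11.5), other reference cells, no block and each library left out. Leaving out each gene's top cell, or cells with other myeloid markers, was chosen after seeing the data. The tests were checked on simulated data. Intervals used scipy 1.17.1. Positions are from GENCODE vM21, which matched 27643 of 27998 identifiers. A listed gene is not reported here.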

Additional observations from a re-analysis of the deposited data

How the results depend on the processing

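For rich against zero cells (725 genes higher, 436 lower), DESeq2 called 409 and 132 genes and thinned cells 449 and 210. The lower count was 265 with depth matched (incompletely in the irradiated library at 6 h) and 221 against cells with 1 to 9 UMIs. Leaving out 1 library gave 455 to 768 higher and 201 to 392 lower. The pairing of both sums by library carried the test: with no replicate block 114 genes were higher and 9 lower, of which 123 were shared with the same sign. No paired analysis was possible because each treatment and time is 1 library, for irradiated against sham cells. The interaction called 1 gene higher and 7 lower with rich cells from 20 UMIs. Shares of rich cells were 15.6%, 2.36%, 3.74% and 4.74% from 20 UMIs, 15.7%, 2.06%, 4.56% and 5.10% thinned, and 22.5%, 3.62%, 8.70% and 11.02% from 3 per 1000 UMIs. Genes past 2-fold after irradiation at 6 h were 71 higher and 24 lower from 200 UMIs, 185 and 87 thinned, and 456 higher against the sham library of the other time. At 1 week they were 8 and 5 from 200 UMIs, 33 higher from 20 chemokine UMIs, 32 higher thinned, and 72 lower against the other sham library. Signs turned for Plac8, itself one of the markers left out, without cells with other myeloid markers (-0.62), and against the other sham library for Apoe (0.39) and Ifit1 (2.20) at 6 h and Ccl7 (-1.49) and Ccl12 (-0.065) at 1 week. H2-Aa at 6 h was -1.0 with rich cells from 20 UMIs. Of 1763 values of single genes for rich against zero cells under alternatives, 1546 kept direction and call, and 215 lost the call. Ratios of irradiated over sham cells have no call. Of 224 such values 153 stayed the same, 66 moved in size and 5 turned sign. Against the sham library of the other time 37 of 75 stayed the same, 34 moved and 4 turned sign. Where no reason is given, the cause was not tested. The depth of sums from 120 to 473 rich cells limits genes under 50 UMIs.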

Other observations

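Parts of the lysosomal and metabolic lists were called higher in rich cells as well. Over all genes 7.21% were called higher and 4.34% lower. Of 29 lysosomal genes tested 16 were higher and 1, Laptm5, was lower (median log2 fold 0.26, beside -0.01 for all genes), and without the irradiated library at 6 h 9 were higher. Ctsb, a cathepsin protease, had 5603, 5084, 2938 and 3207 CPM in rich cells, against 2914, 2606, 2201 and 2035 CPM in zero cells (0.79 ± 0.08, adjusted p = 9.6e-07 by edgeR's quasi-likelihood test). The tetraspanin gene Cd63 (1.26 ± 0.10), the proton pump subunit gene Atp6v1a (1.06 ± 0.17) and the acid glucosidase gene Gaa (0.81 ± 0.12) were among the others.

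Of 17 glycolysis genes tested 9 were higher and 0 lower (median 0.39), 5 were higher with zero cells matched on total UMIs, and 4 were higher with thinned cells. Pfkfb3, a regulator of glycolytic flux, was at 1.02, and Tpi1 and Ldha, glycolytic enzymes, at 0.63 and 0.62. Of 14 cholesterol and lipid genes 5 were higher (Lpl, Apoe, the efflux transporter Abcg1 at 0.93, the cholesterol esterifying enzyme Soat1 at 0.72 and Mylip at 0.30) and 0 lower. Mitochondrially encoded genes were limited by the cell rule through the mitochondrial share, so nothing is read from their counts. Of 13 tested 1, mt-Nd3, was higher and 0 lower (median 0.18), beside 7.21% higher over all genes. Of 81 ribosomal protein genes 26 were higher (median 0.18), a count that was 3 with matched depth, 4 without the sham library at 1 week, 10 without the irradiated library at 6 h and 61 with the top cell of each gene left out.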
